A study of Mus musculus with 12 samples.

Results

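The 10 genes described here encode transcription regulators that set and hold astrocyte identity: the SOX factors Sox9 and Sox2, the nuclear factor I genes Nfia, Nfib and Nfix, the inhibitors of DNA binding Id2, Id3 and Id4, the nuclear receptor Rorb and the zinc finger factor Zbtb20. They were taken by symbol, and all 10 matched 1 row each of a deposited table that holds 56791 gene names once rows sharing a symbol are summed. The table gives FPKM (fragments counted, scaled to exonic length in kilobases and to the library's total) in 12 RNA sequencing libraries of hippocampal astrocytes. The cells came from naive adult males and were sorted by ACSA-2, the astrocyte surface protein encoded by Atp1b2. Both genotypes carry a floxed Tnfrsf1b gene, which encodes the tumour necrosis factor receptor TNFR2. The Ctrl mice, labelled Tnfrsf1bfl/fl, carry that allele without a recombinase and gave A1, A2 and A8. The cKO mice, labelled GfapcreERT2:Tnfrsf1bfl/fl, gave A4, A9 and A10. They add a Cre recombinase that is fused to a ligand-binding domain and driven by the Gfap promoter, so the Cre is made where that promoter is active. The labels define neither the A number nor the S1 and S2 libraries that each A number has, and they give no tamoxifen schedule. S1 and S2 were averaged, so n is 3 A numbers per genotype. A p-value sets the genotype difference against the spread between A numbers, in an estimate that also draws on other genes. The A numbers may not be separate animals.

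In the embryonic brain SOX9 and NFIA act in sequence to switch neural progenitors from making neurons to making glia, and both stay on in mature astrocytes. ID proteins have a helix-loop-helix but no DNA-binding basic region, so they tie up E proteins and keep proneural factors from acting; their genes are classic targets of bone morphogenetic protein (BMP) signals carried by SMAD proteins. ZBTB20 is a repressor needed for hippocampal identity and for astrocyte formation in the cortex, and RORB is an orphan nuclear receptor also known from cortical neurons and the retina.

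All 10 genes were strongly transcribed in every library, and none differed between the genotypes beyond the spread between A numbers. Their mean levels ran from 32.7 FPKM for Nfib to 143 FPKM for Sox2, which placed them at ranks 137 to 870 of the 17540 genes tested. The 10 genes rested on 1218 to 72848 recovered reads per library, so counting error was small beside the differences between A numbers. The count of genes with a limma adjusted p under 0.05 was 0 of 10, where the background over all tested genes was 0%. At an unadjusted p under 0.05 it was also 0 of 10, against 7.69% of all tested genes. The A numbers of the genotypes overlapped in all 10 genes, and they did not overlap in 13% of all tested genes. With 10 genes, counts of 0 cannot be told from these background shares.

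**Figure D1:**
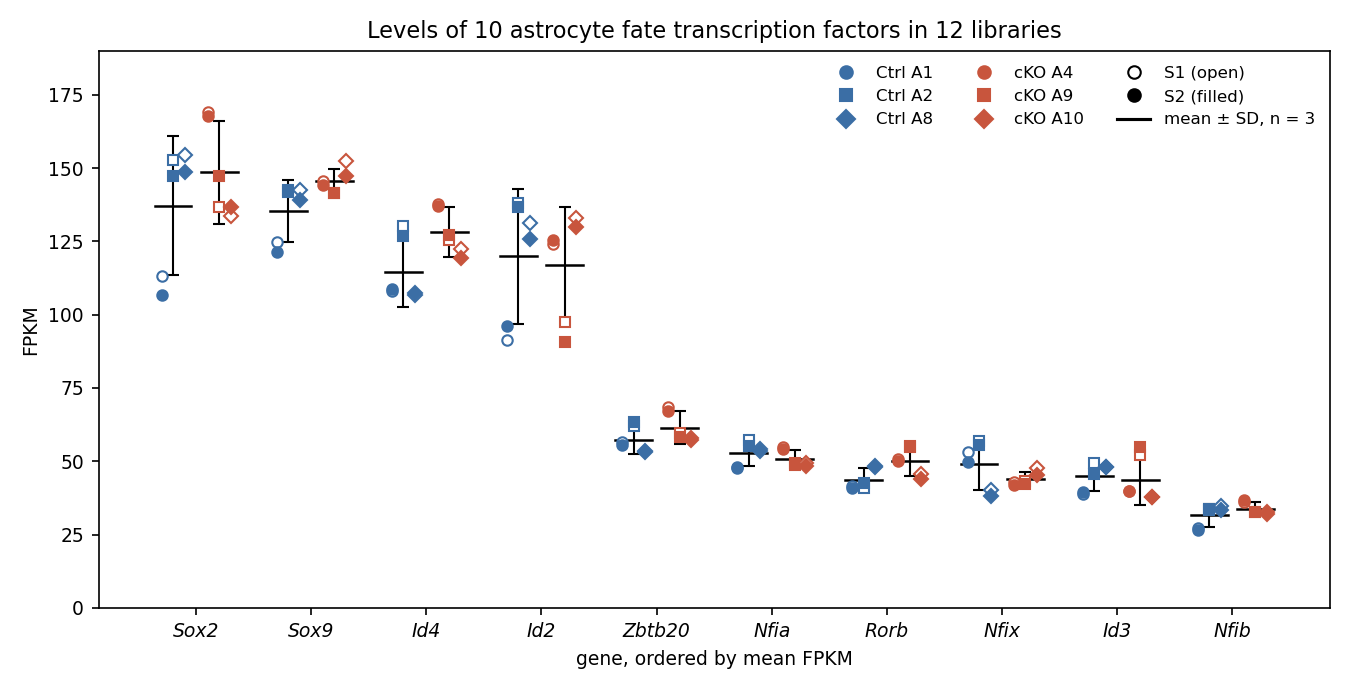
FPKM (vertical axis, from 0) of the 10 genes in each library, Ctrl in blue and cKO in red, with the mean and SD of the 3 A numbers per genotype as black bars. Sox2, Sox9, Id4 and Id2 form an upper group between 93.7 and 168 FPKM per A number, the other 6 genes a lower one between 26.9 and 67.8, and the genotypes overlap in each gene.

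The libraries set the frame for these values. Recovered depth ran from 17311872 to 35323347 reads per library, with the S2 libraries the deeper ones. Tnfrsf1b (ENSMUSG00000028599), the targeted gene, gave no read in 9 of the 12 libraries. The exceptions were Ctrl A1 S1 with 4 reads and the S1 and S2 libraries labelled cKO A4 with 10 and 22, so the gene does not check the labels, and most of its reads came from a sample labelled cKO. A4 also had the highest microglial marker sum, with C1qa at 2.05 FPKM (at most 0.305 in the other A numbers) and Cx3cr1 at 1.28 FPKM (at most 0.389). Of the 8 microglial markers all but Aif1 were highest in A4. Aif1 was at 0.148 FPKM in A4, 0.619 FPKM in A1 and 0.456 FPKM in A9. Whether the Tnfrsf1b reads of A4 came from microglia was not tested. Among the 12 astrocyte markers, 0 were at 0, and their summed level was 3927 to 4890 FPKM in Ctrl and 4735 to 5436 FPKM in cKO. Of the other lists, the 12 oligodendrocyte markers summed to 1096 to 2354 FPKM in Ctrl and 313 to 753 FPKM in cKO without overlap, among them the myelin gene Cldn11 (187 ± 77.2 and 37.2 ± 23.5 FPKM, SD, n = 3 each). The 10 neuronal markers summed to 18.2 to 24.6 FPKM in Ctrl and 9.78 to 17.8 FPKM in cKO, led by Prox1 and Snap25, with 6 of the 10 under a mean of 1 FPKM. The 8 microglial markers summed to 14.2 to 19.1 FPKM in Ctrl and 20.7 to 36.5 FPKM in cKO, among them P2ry12 (2.44 ± 1.49 and 6.96 ± 2.14 FPKM), with 5 of the 8 under 1 FPKM. The 3 erythrocyte markers summed to 0.102 to 1.49 FPKM in Ctrl and 1.80 to 2.31 FPKM in cKO without overlap, with 2 of the 3 under a mean of 1 FPKM. This sum was almost wholly Alas2. Hbb-bs was above 0 only in A4 S1, at 0.355 FPKM, and the remaining marker was at 0 in every library. Sums of the precursor, stem cell, endothelial, mural, ependymal, choroid plexus and fibroblast lists overlapped between the genotypes. In sorted bulk samples, fewer cells of a type and less RNA per cell cannot be told apart, and the part of the oligodendrocyte RNA in the results below was not tested.

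Promoter sequence was read for the genes with RefSeq windows (GRCm38.p6, 250 bases before to 50 after a start site), which 8 of the 10 genes had, in 12 windows, all but Sox9 and Nfib. As background, BMP signals reach Id genes through SMAD proteins, and SOX9 acts upstream of Nfia. The sites printed below were not chosen ahead of the search. GGCGCC, a GC-rich element bound by SMAD proteins and the same on both strands, occurred in 3 of the 12 member windows and in 11.9% of all 32851 windows. The windows with a match were 73.3% G or C for Id4, 63.3% for Id2 and 49.3% for Nfix, beside a median of 52.7% over all windows. The part of base composition in these matches was not tested. The 3 sites, written 5′ to 3′ on the gene's strand with the match in capitals, lie at chr12:25096306-25096335 for Id2 on the minus strand (231 bases before the start site), chr13:48260956-48260985 for Id4 on the plus strand (148 bases before) and chr8:84780129-84780158 for Nfix on the minus strand (64 bases before).
Id2: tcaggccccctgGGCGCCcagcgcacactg
Id4: ctcgggttgcccGGCGCCccgccctcgcca
Nfix: caacagagcgagGGCGCCtcttttcttcct
The SOX core ACAATG, searched on both strands, occurred in 2 of the 12 member windows and in 12.6% of all windows. Both matches read as CATTGT on the gene's strand, at chr4:97581839-97581868 for Nfia on the plus strand (92 bases before the start site) and at chr8:84776026-84776055 for Nfix on the minus strand (215 bases before another of its start sites).
Nfia: gagagattggttCATTGTcaaggagatttt
Nfix: gatggcacctccCATTGTcgggggaggggg
The search covered 12 motifs, and these were picked for printing after the matches were seen. The NFI palindrome (TTGGC, any 5 bases, GCCAA) was in 0 member windows and in 0.0365% of all windows. The shorter NFI motif TTGGCA (14.1% of all windows), the SOX variant AACAAT (10.7%), the TATA box TATAAA (13.6%), the cAMP response element (1.79%), the SMAD palindrome (0.213%) and the EGR site (0.612%) also had 0 member windows. The E-box CANNTG was in 8 of the 12 member windows (72.3% of all windows), the CCAAT box in 9 (37.4%) and the STAT site in 2 (8.3%). Both strands were searched and overlaps between motifs were allowed. These matches are letters in a window and no evidence of binding, and no match says nothing of a factor.

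SOX9 and SOX2 are high-mobility-group proteins, the first the earliest of the gliogenic regulators and the second a factor of neural stem cells that astrocytes retain. Sox9 (ENSMUSG00000000567, chromosome 11, 112673050 to 112678586, plus strand, 4135 exonic bases) was at 123, 142 and 141 FPKM in Ctrl A1, A2 and A8, and at 145, 142 and 149.98 FPKM in cKO A4, A9 and A10. The Ctrl A1 value was the low one, and the other 5 A numbers spanned 141 to 149.98 FPKM. Gene coordinates here are those of the deposited table, whose build is not settled and whose positions differ from the annotation of GRCm38, the build of the promoter windows. The means were 135 ± 10.6 FPKM for Ctrl and 145 ± 4.25 FPKM for cKO (SD, n = 3 each). On the log2(FPKM + 1) scale cKO minus Ctrl was 0.11 (SE 0.10, 95% interval -0.14 to 0.35, limma adjusted p = 0.896), and 0.04 without A1. Sox9 varied least of the 10 genes, with an SD between A numbers of 0.087 on that scale, and 93.2% of the 870 genes at or above the level of Nfib, the lowest of the 10, varied more.

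Sox2 (ENSMUSG00000074637, chromosome 3, 34704554 to 34706610, plus strand, 1 exon of 2057 bases) was at 109.9, 150.1 and 152 FPKM in Ctrl A1, A2 and A8, and at 168, 142 and 135 FPKM in cKO A4, A9 and A10. Ctrl A1 was again lowest and cKO A4 highest, a 1.53-fold range that was the widest among the 10 genes. The genotype difference was 0.12 (SE 0.16, 95% interval -0.26 to 0.51, limma adjusted p = 0.929), and without A1 it was -0.03. Sox2 lies inside an intron of the noncoding gene Sox2ot, with which it shares 0 exonic bases. Sox2ot averaged 8.47 FPKM, with a genotype difference of -0.64 (SE 0.17, limma adjusted p = 0.415).

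Within the SOXE family (Sox8, Sox9 and Sox10), Sox9 held 63.6, 66.6 and 74.5% of the summed FPKM in Ctrl and 81.4, 76.9 and 75.9% in cKO. Its share was above every Ctrl value in each cKO A number although its own level overlapped between the genotypes. Mean shares in Ctrl and cKO were 68.2 and 78.1% for Sox9, 13.4 and 3.78% for Sox10, and 18.4 and 18.1% for Sox8. Shares within a family depend on each other, so the higher Sox9 share mirrors the lower Sox10 share and is no separate result. Sox10, the oligodendrocyte lineage member, was at 35.2, 32.6 and 12.6 FPKM in Ctrl and at 3.69, 6.82 and 11.01 FPKM in cKO, with a difference of -1.75 (SE 0.47, limma adjusted p = 0.419). Sox10 and the summed oligodendrocyte markers were both below the Ctrl range in all 3 cKO A numbers, and the part of the latter in the Sox9 share was not tested. Sox8, the remaining SOXE gene, was at 36.5 ± 1.75 FPKM in Ctrl against 33.9 ± 3.86 FPKM in cKO (SD over 3 A numbers). Among the SOXB1 genes, Sox2 held 80.2 to 85.1% of the summed FPKM in the 6 A numbers. Sox1 stood at 26.1 ± 6.39 FPKM in Ctrl against 29.4 ± 4.11 FPKM in cKO, and Sox3 stayed at or under 1.02 FPKM in each A number and was not tested.

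NFI proteins bind DNA as dimers and share a DNA-binding domain; NFIA works with SOX9 at astrocyte genes, and NFIB and NFIX act in glial maturation and in hippocampal development. Nfia (ENSMUSG00000028565, chromosome 4, 97660971 to 98007111, plus strand, 10891 exonic bases) was at 47.9, 56.3 and 53.9 FPKM in Ctrl A1, A2 and A8, and at 54.5, 49.0 and 48.9 FPKM in cKO A4, A9 and A10. The cKO values fell wholly within the Ctrl range. The difference was -0.05 (SE 0.11, 95% interval -0.32 to 0.22, limma adjusted p = 0.967), and -0.00198 without A2. Nfia had the narrowest range of the 10 genes, 1.18-fold from the lowest to the highest A number.

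Nfib (ENSMUSG00000008575, chromosome 4, 82208410 to 82623987, minus strand, 14957 exonic bases) was the lowest of the 10, at 26.9, 33.6 and 34.0 FPKM in Ctrl A1, A2 and A8, and at 36.5, 32.7 and 32.3 FPKM in cKO A4, A9 and A10. Ctrl A1 stood below the other 5, which spanned 32.3 to 36.5 FPKM. The difference of 0.10 (SE 0.13, 95% interval -0.21 to 0.42, limma adjusted p = 0.926) came to -0.00161 without A1.

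Nfix (ENSMUSG00000001911, chromosome 8, 85426505 to 85526973, minus strand, 7351 exonic bases) was at 51.6, 56.1 and 39.1 FPKM in Ctrl A1, A2 and A8, and at 42.3, 42.8 and 46.5 FPKM in cKO A4, A9 and A10. Here A1 and A2 were the high values, and A8, the third Ctrl value, was below all cKO values. The difference was -0.14 (SE 0.15, 95% interval -0.50 to 0.22, limma adjusted p = 0.911), -0.29 without A8 and -0.03 without A2. Nfix shares 3.12% of its exonic bases with Lyl1 and 1.86% with the noncoding G430095P16Rik, both on the other strand, so a small part of its reads could belong to them. Nfic, the family member outside the 10, went with Nfix: it was at 25.0 and 26.5 FPKM in Ctrl A1 and A2 and at 16.4 to 22.0 FPKM in the other 4 A numbers.

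The NFI family as a whole summed to 156 ± 15.0 FPKM in Ctrl against 147 ± 5.33 FPKM in cKO (SD over 3 A numbers). Nfia and Nfix held the largest shares, 31.6 to 37.6% and 27.3 to 34.1% over the 6 A numbers, followed by Nfib with 17.8 to 24.1% and Nfic with 11.5 to 16.5%. The shares overlapped between the genotypes for all 4 genes.

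**Figure D2:**
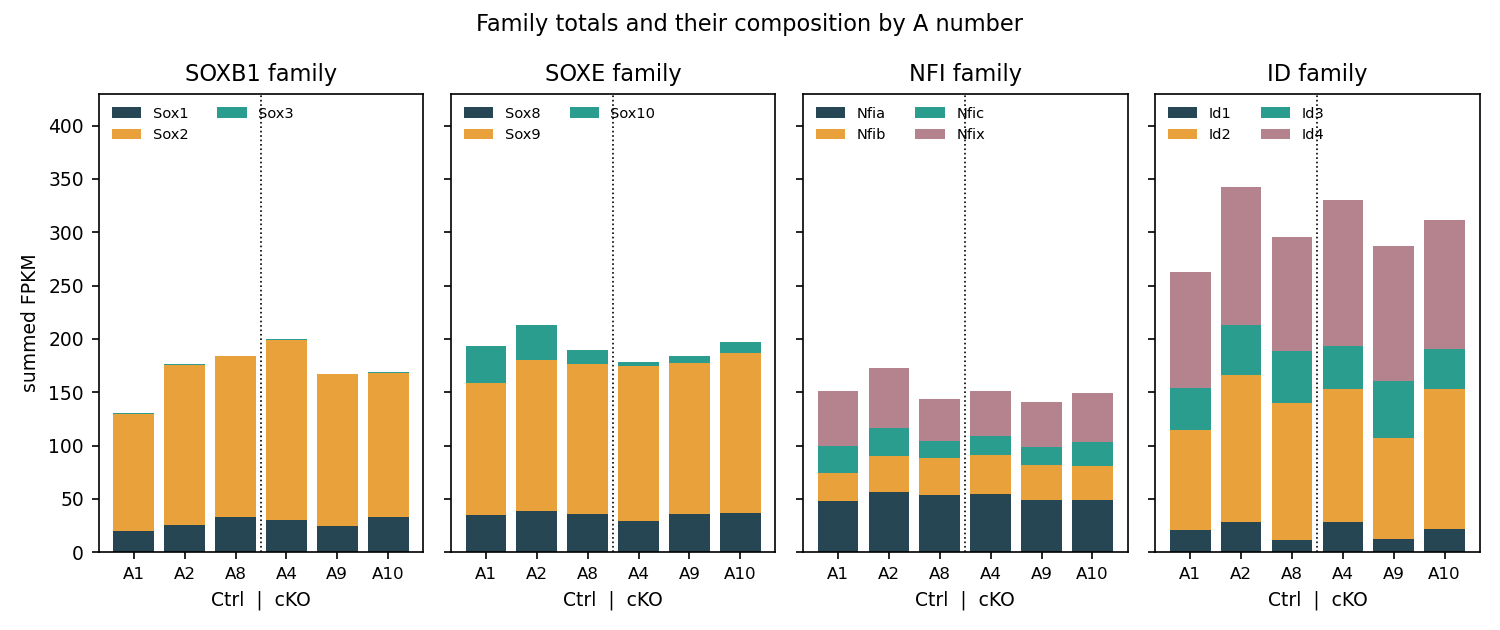
Summed FPKM (vertical axis) of 4 gene families in each A number, Ctrl A1, A2 and A8 left and cKO A4, A9 and A10 right of the dotted line, with colours for the family members. Sox10 makes up 6.65 to 18.2% of the SOXE sum in Ctrl and 2.07 to 5.57% in cKO, Sox9 lies between 123 and 149.98 FPKM, and the ID sum is the tallest, at 263 to 342 FPKM.

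Transcripts of the ID genes had the highest summed FPKM of the 4 families compared (SOXB1, SOXE, NFI and ID). Id4 (ENSMUSG00000021379, chromosome 13, 48414704 to 48419502, plus strand, 3849 exonic bases), which marks quiescent neural stem cells and astrocytes, was at 108, 129 and 107 FPKM in Ctrl A1, A2 and A8, and at 137, 126 and 121 FPKM in cKO A4, A9 and A10. A1 and A8 were below all cKO values, and A2 was inside the cKO range. The difference was 0.16 (SE 0.12, 95% interval -0.12 to 0.44, limma adjusted p = 0.848). The antisense noncoding genes A330033J07Rik and Gm49291 share 2.13% and 4.44% of the Id4 exonic bases.

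Id2 (ENSMUSG00000020644, chromosome 12, 25143798 to 25147139, minus strand, 2438 exonic bases), also known from neurons and precursor cells, was at 93.7, 137 and 128 FPKM in Ctrl A1, A2 and A8, and at 125, 94.1 and 131 FPKM in cKO A4, A9 and A10. One A number of each genotype, Ctrl A1 and cKO A9, was low, and the other 4 spanned 125 to 137 FPKM. Id2 had the largest SD between A numbers of the 10 genes, 0.28 on the log2 scale, and its difference of -0.03 (SE 0.19, 95% interval -0.49 to 0.43, limma adjusted p = 0.989) was the smallest.

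Id3 (ENSMUSG00000007872, chromosome 4, 135870808 to 135873066, plus strand, 1791 exonic bases), a BMP target in reactive astrocytes, was at 39.2, 47.5 and 48.1 FPKM in Ctrl A1, A2 and A8, and at 39.9, 53.5 and 37.7 FPKM in cKO A4, A9 and A10. The highest and the lowest value were both cKO. The difference was -0.05 (SE 0.17, 95% interval -0.44 to 0.34, limma adjusted p = 0.979). In A9, Id3 was at its highest while Id2 was at its lowest in cKO, so these paralogs did not follow one order across the A numbers. Id1, the family member outside the 10, had the widest range of the 4, from 11.8 FPKM in Ctrl A8 to 28.5 FPKM in cKO A4, a 2.41-fold span with means of 20.6 ± 8.34 FPKM in Ctrl against 20.9 ± 7.92 FPKM in cKO (SD over 3 A numbers). The ID sum was 299.98 ± 39.9 FPKM in Ctrl against 309.6 ± 22.0 FPKM in cKO, of which Id4 and Id2 together made up the larger part in each A number, with 36.2 to 44.1% and 32.8 to 43.5%.

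Rorb (ENSMUSG00000036192, chromosome 19, 18907969 to 19088560, minus strand, 11076 exonic bases) was at 41.1, 41.6 and 48.2 FPKM in Ctrl A1, A2 and A8, and at 50.6, 55.0 and 44.7 FPKM in cKO A4, A9 and A10. The cKO values of A4 and A9 were above all Ctrl values, and A10 was below Ctrl A8. Rorb had the largest difference of the 10 genes, 0.19 (SE 0.13, 95% interval -0.11 to 0.49, limma adjusted p = 0.824). Its paralog Rora was at 17.8 ± 0.724 FPKM in Ctrl against 18.4 ± 1.51 FPKM in cKO (0.04, SE 0.12, limma adjusted p = 0.978).

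Zbtb20 (ENSMUSG00000022708, chromosome 16, 42696244 to 43462965, plus strand) has the longest exonic length of the 10 genes, 30730 bases in 127 exon entries, and the most reads, 32024 to 72848 per library. It was at 56.1, 62.6 and 53.3 FPKM in Ctrl A1, A2 and A8, and at 67.8, 59.0 and 57.6 FPKM in cKO A4, A9 and A10. Only A4 was above the highest Ctrl value. The difference was 0.10 (SE 0.12, 95% interval -0.18 to 0.38, limma adjusted p = 0.919), and 0.03 without A4. Because FPKM divides by all annotated exonic bases, a gene with many alternative exons such as Zbtb20 has its level set low beside a compact gene such as Sox2.

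**Figure D3:**
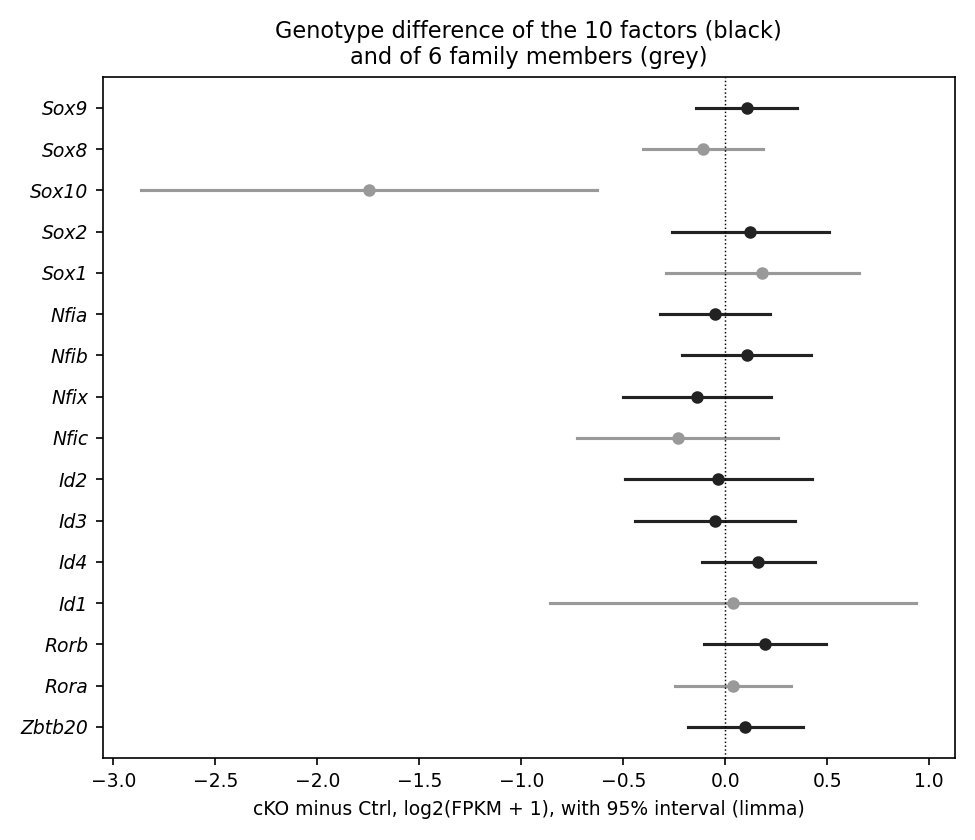
cKO minus Ctrl on the log2(FPKM + 1) scale (horizontal axis) with the 95% limma interval of each gene, not adjusted for the number of genes, for the 10 genes in black and 6 family members in grey. All black intervals hold 0 and lie between -0.50 and 0.51; the signs of the 10 differences depend on the scaling, and all 10 are negative when libraries are scaled to the astrocyte markers.

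The 10 intervals lay between -0.50 and 0.51 on the log2 scale, that is between a 0.706-fold and a 1.42-fold ratio of cKO to Ctrl. A ratio of 2 in either direction was thus outside the 95% interval of each gene taken singly, while ratios inside these intervals could not be told from 1. The median size of the difference was 0.11 over the 10 genes, 0.21 over all tested genes and 0.16 over the 870 genes at or above the level of Nfib. The sign was positive in 6 genes and negative in 4 with FPKM as deposited, but negative in 10 after scaling the libraries to the median of the astrocyte markers and in 1, Nfix, under upper quartile scaling. The astrocyte marker scaling moved the median of all tested genes from -0.01 to -0.19, and relative to that shift 6 of the 10 genes remained on the positive side. Without A4, which held most of the Tnfrsf1b reads, 0 of 10 genes and 0 of all 17540 passed, with limma adjusted p-values of at least 0.976 and 0.533.

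**Figure D4:**
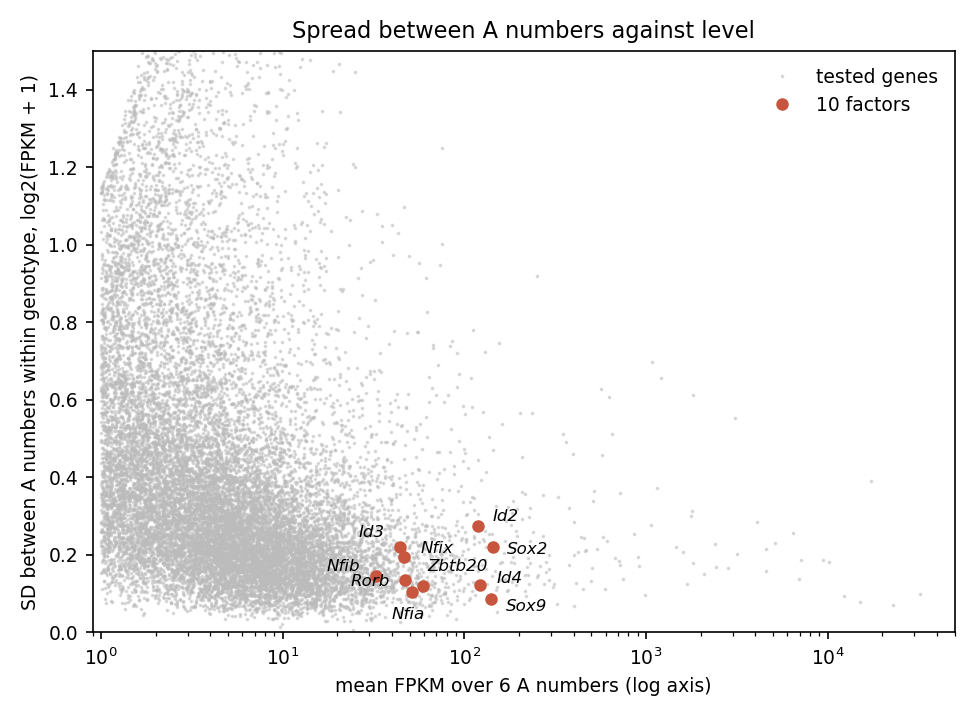
SD between A numbers within genotype on the log2(FPKM + 1) scale (vertical axis) against mean FPKM (log axis) for the tested genes in grey and the 10 genes in red; 306 genes with an SD above 1.5 are outside the axis. The 10 genes sit at the high-level end with SDs of 0.087 for Sox9 to 0.28 for Id2.

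The SD between A numbers within a genotype had a median of 0.14 over the 10 genes, 0.32 over all tested genes and 0.20 over the genes at or above the level of Nfib. Against the last group, Sox9, Nfia, Zbtb20 and Id4 were among the steadier genes, with 93.2, 88.7, 81.5 and 80.8% of those genes varying more. For Id3, Sox2 and Id2 the share was 42.2, 42.5 and 28.3%, so these 3 varied more than most genes of such level. S1 and S2 of one A number differed far less: their SD was 0.017 to 0.045, and the SD between A numbers was 4.13 to 7.29 times as large.

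The deviations were partly shared between genes. Ctrl A1 was the lowest A number in 6 of the 10 genes (Sox9, Sox2, Nfia, Nfib, Id2 and Rorb) and was below the gene's mean in 9, all but Nfix. Ctrl A8 was lowest in 3 (Id4, Zbtb20 and Nfix) and cKO A10 in 1 (Id3). cKO A4 was highest in 4 (Sox2, Nfib, Id4 and Zbtb20), and Ctrl A2 in 3 (Nfia, Nfix and Id2). The median deviation over the 10 genes was -0.17 in A1 and between -0.03 and 0.10 in the other 5 A numbers. A1 also had the lowest astrocyte marker sum, 3927 FPKM, and an oligodendrocyte marker sum of 2172 FPKM; A2, with 2354 FPKM of oligodendrocyte markers, had a median deviation of 0.09. Whether the makeup of A1 bears on its low values was not tested.

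**Figure D5:**
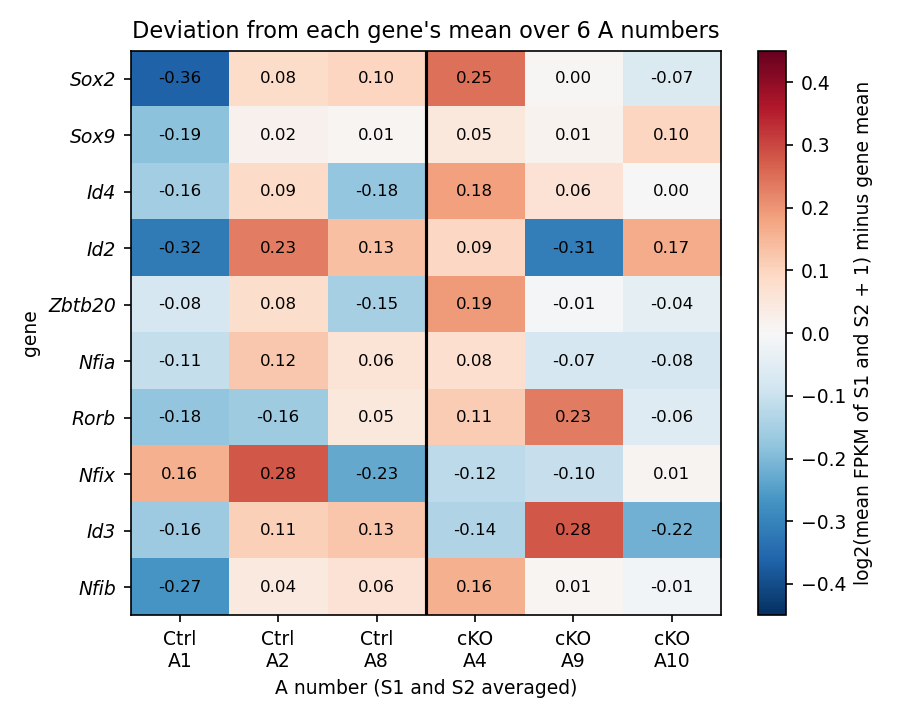
Deviation of each gene in each A number from the gene's mean over the 6 A numbers, on the log2 scale (colour and printed value), with Ctrl left and cKO right of the line. The A1 column is blue in all genes but Nfix, and the strongest positive cells are those of Nfix in A2, Sox2 in A4 and Id3 in A9.

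The order of the levels per annotated exonic length was kept across all A numbers at some steps and not at others. A bias from annotated length, as for Zbtb20, could itself keep a step in every A number. Its part in these counts was not tested. The step from Id2 at 118 FPKM to Zbtb20 at 59.4 FPKM, a ratio of 1.99, was kept in 6 of 6 A numbers with no overlap of ranges, and so was the step from Id3 at 44.3 FPKM to Nfib at 32.7 FPKM. Sox9 was above Id4 in 6 of 6 A numbers within overlapping ranges. The neighbours Sox2 and Sox9 kept their order in 4 of 6 A numbers, Id4 and Id2 in 3, Zbtb20 and Nfia in 5, Nfia and Rorb in 5, Rorb and Nfix in 3, and Nfix and Id3 in 4, so the order within these pairs did not hold in every A number.

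S2 and S1 libraries of one A number gave nearly the same values. All 10 differences of S2 minus S1 were negative, from -0.05 for Nfix to -0.01 for Rorb, and 0 of 10 had a limma adjusted p under 0.05 in the fit with the A number as a block, against 1.39% of all tested genes. Nfix had -0.05 (SE 0.01, adjusted p = 0.151) and Sox9 -0.02 (SE 0.01, adjusted p = 0.427) in that fit. TMM scaling lowered S2 against S1 for all genes, with the median over tested genes moving from 0.02 to -0.01. Under it Nfix, at -0.08, and Sox9, at -0.05, were among the 251 of 17540 genes that passed.

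Genes that act with the 10 factors were counted from fixed lists, and in none of these lists did a gene have a limma adjusted p under 0.05 for cKO against Ctrl. Of the 11 other SOX genes 10 were tested, with 2 at an unadjusted p under 0.05 (1 lower in cKO, where 4.71% of all tested genes were, and 1 higher, where 2.98% were): Sox10, given above, and Sox5, a factor of several neural lineages, at 4.65 ± 0.830 FPKM in Ctrl against 7.19 ± 0.621 FPKM in cKO (SD, n = 3 each; 0.54, SE 0.17, limma adjusted p = 0.503). Of the 5 listed paralogs of the NFI, ID, ROR and ZBTB genes, 0 reached an unadjusted p under 0.05, against 7.69% of all tested genes. The smallest p-values were those of Zbtb45 and Nfic. Zbtb45 was at 2.05, 1.78 and 0.2 FPKM in Ctrl A1, A2 and A8 and at 1.82 to 2.47 FPKM in cKO, and its difference of 0.53 was 0.10 without A8. The median difference was 0.10 in the SOX list and 0.04 in the paralog list, beside -0.01 over all tested genes.

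E proteins and other basic helix-loop-helix factors, on which ID proteins act, had 11 of 13 genes tested and 2 at an unadjusted p under 0.05, both with a negative difference. Over all tested genes, 4.71% reached that p with cKO lower. In cKO against Ctrl, Olig1, a factor of the oligodendrocyte lineage, was at 55.8 ± 7.18 against 83.2 ± 10.5 FPKM (SD, n = 3 each; -0.57, SE 0.15, limma adjusted p = 0.391). Hey2, a Notch effector, was at 3.44 ± 0.991 against 5.94 ± 0.606 FPKM (-0.67, SE 0.22, limma adjusted p = 0.523). The A numbers did not overlap between genotypes for 3 genes of this list, these 2 among them, with cKO lower in each, as in 7.22% of all tested genes, and the median of the list was -0.02.

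In the BMP and SMAD pathway, which feeds the Id genes, 18 of 21 genes were tested, and 8 had a positive and 10 a negative difference with a median of -0.06. One gene had an unadjusted p under 0.05: Smad7, the inhibitory SMAD that BMP and TGF-beta signals induce, was at 12.2, 10.2 and 7.73 FPKM in Ctrl A1, A2 and A8, and at 4.204, 2.97 and 6.24 FPKM in cKO A4, A9 and A10. The groups did not overlap, with cKO lower, as in 7.22% of all tested genes. The difference was -1.04 (SE 0.27, limma adjusted p = 0.399). Over all tested genes, 4.71% had an unadjusted p under 0.05 with cKO lower. Smad4, the shared partner of signalling SMADs, was at 18.4 ± 1.65 FPKM in Ctrl against 16.1 ± 1.07 FPKM in cKO (-0.18, SE 0.13, limma adjusted p = 0.833). The values of Id2, Id3 and Id4 overlapped between the genotypes. Smad7 was named for the smallest p-value of its list, and a relation between its level and the Id genes was not tested.

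In the gp130, JAK and STAT3 pathway, the other classic inducer of astrocyte genes, 10 of 11 genes were tested. Of these, 0 reached an unadjusted p under 0.05, against 7.69% of all tested genes. The smallest p-values belonged to the kinase gene Jak2, at 16.3 ± 2.23 FPKM in Ctrl against 13.2 ± 2.15 FPKM in cKO, and the receptor gene Cntfr, at 62.7 ± 5.56 and 72.2 ± 11.9 FPKM (SD, n = 3 each; limma adjusted p = 0.787 and 0.854). The median of the list was -0.01.

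Other transcription factors of forebrain astrocytes had 22 of 24 genes tested, 19 with a positive and 3 with a negative difference, a median of 0.14 and 1 gene at an unadjusted p under 0.05. That gene was Hopx, a homeodomain-only factor of stem cells and astrocytes, at 43.3 ± 10.6 FPKM in Ctrl against 61.9 ± 8.29 FPKM in cKO (0.52, SE 0.20, limma adjusted p = 0.607). The next was Pou3f3, a POU factor of the forebrain, at 45.1 ± 3.01 and 54.2 ± 3.63 FPKM (0.26, SE 0.11, limma adjusted p = 0.650). Over all tested genes, 8622 differences were positive and 8918 negative, and 2.98% of the genes had an unadjusted p under 0.05 with cKO higher. Of 16 astrocyte genes linked to SOX9 and NFIA, 14 had a positive and 2 a negative difference, with a median of 0.18. Most of these 16 genes are also among the 12 astrocyte markers, so the 2 lists do not give separate results. In 3 of the 16 the cKO values were all above Ctrl, as in 5.76% of all tested genes. The smallest p-values there were those of Mmd2, a target of both factors, at 79.8 ± 6.74 and 95.9 ± 6.37 FPKM, and the connexin 43 gene Gja1, at 262 ± 27.3 and 322 ± 41.0 FPKM (limma adjusted p = 0.649 and 0.693). Scaled to the astrocyte markers, of which Gja1 is one, the differences of Hopx, Pou3f3, Mmd2 and Gja1 became 0.30, 0.033, 0.037 and 0.066. Gfap, whose promoter drives the recombinase, was at 78.5 ± 29.0 and 117 ± 33.9 FPKM (SD, n = 3 each; 0.59, SE 0.29, limma adjusted p = 0.718). The 12 astrocyte markers had a median of 0.21 and the 12 oligodendrocyte markers one of -1.75, so the median of the 10 fate factors, 0.10, lay between that of all tested genes, -0.01, and that of the astrocyte markers.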

How the data were processed

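The authors deposited 1 table of FPKM values, per the file headers with exonic length and exon coordinates for 56941 genes in 12 libraries. Per the submitters' processing notes FastQC, STAR, featureCounts and DESeq2 were used with mm10 and GRCm38, without roles or versions. Member starts and ends matched GENCODE M21 on GRCm38 in 0 of 10 genes, though all 10 had the same span length, so gene coordinates are those of the deposited table, of unstated build. SMART-Seq V4 libraries were sequenced as paired reads of 125 bases per the labels, a kit that does not mark strand.

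FPKM times length in kilobases summed to 1000000 per library. Reads were recovered from FPKM steps; of values under 200 reads, 85.7% to 89.5% were whole to within 0.02; 72.6% to 80.4% of whole counts up to 20 were even, so a pair may count as 2 reads. Rows sharing a symbol (147 symbols) were summed. S1 and S2 were averaged as log2(FPKM + 1), which understates the change of low genes. The test covered 17540 genes whose FPKM averaged 1 or more, using limma 3.58.1 in R 4.3.3 (variance trend, two-sided, Benjamini-Hochberg over all tested genes, threshold 0.05). The fits were tested on simulated data. Summaries used Python 3.11.15.

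The genes, lists, tests and alternatives were chosen with earlier results of these data known; 12 promoter motifs were searched after the values were known, and those printed with sites were picked after their matches were seen. Named are the 10 genes, Tnfrsf1b, Gfap, 7 family members, the 2 smallest p-values per related list where no gene passed, and the 2 highest markers of each marker list whose sums did not overlap between genotypes; a few genes this rule names are not reported here. Sox2ot and the other overlapping genes were named after their values were seen, and C1qa, Cx3cr1 and Aif1 were named outside the rule. Of 24 other astrocyte factors listed, 23 matched a row.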

Additional observations from a re-analysis of the deposited data

How the results depend on the processing

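None of the 10 genes passed for cKO against Ctrl under any of the 24 alternatives, with a smallest limma adjusted p of 0.296, in the fit without A8. Of 240 such values 19 changed sign, and Nfix was the gene that never did. Scaling to the astrocyte markers gave -0.122 for Sox9, -0.104 for Sox2, -0.118 for Nfib, -0.0648 for Id4, -0.0307 for Rorb, -0.128 for Zbtb20, -0.0348 for Cntfr, -0.0378 for Sox1, -0.181 for Id1 and -0.181 for Rora. Upper quartile scaling gave 0.00466 for Nfia, 0.0223 for Id2 and 0.0062 for Id3, TMM scaling 0.00423 for Id2, array weights 0.0676 for Id2 and -0.00974 for Id1, and the S1 libraries alone -0.037 for Id1. Omitting single A numbers, the ranges that crossed 0 were -0.0277 to 0.203 for Sox2, -0.00161 to 0.163 for Nfib, -0.1997 to 0.114 for Id2, -0.1998 to 0.0467 for Id3, -0.295 to 0.342 for Id1, -0.00454 to 0.103 for Rora and -0.18 to 0.01999 for Snap25; those that did not were 0.04 to 0.14 for Sox9, -0.12 to -0.00198 for Nfia, -0.29 to -0.03 for Nfix, 0.11 to 0.25 for Id4, 0.13 to 0.27 for Rorb and 0.03 to 0.16 for Zbtb20. The cause was not tested.

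Over all genes the count for cKO against Ctrl was 0 (1349 at an unadjusted p under 0.05, 0 with limma voom), and 0 to 1 on omitting single A numbers. The count was 112 in a fit of 12 libraries that treats the A number as random, and 80 when the replicate block was added. Among either, 0 of the 10 genes was found. Both of these fits assume a single correlation of S1 and S2 for all genes, 0.915 without the replicate block. Genes whose A numbers spread more than that can be called too often, so 112 and 80 are not counts of genotype genes. Label numbers distinguish only S1 from S2, so the block links no particular Ctrl to any cKO sample; the change from S1 to S2 had a correlation of 0.133 to 0.190 across genes for any 2 A numbers. For S2 against S1 the count of 243 became 152 without a filter, 22 without the A number block, and 152 to 180 on omitting single A numbers (152 without A1 and without A10, 161 without A9). In that comparison 2 of the 10 genes, Nfix and Sox9, passed under TMM scaling and 2 under upper quartile scaling. Of 9 neighbour pairs in the order of levels, 7 to 9 were kept under each alternative.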
